A study of Mus musculus with 4 samples.

Results

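The genes described here encode cytokines, chemokines, their receptors, and the NF-kB factors with their inhibitors and feedback regulators, 60 genes in all. They were measured in the mouse line NSCL61 and in its derivative NSCL61-sox11, made to express Sox11, a transcription factor of neuronal development. Members were named from the platform annotation of the array: a probe set counted for a gene when it was assigned to that gene alone, and each gene was represented by its probe set with the highest mean over the 4 arrays. This gave a value for 57 of the 60 genes, of 18193 genes represented in the series. Il1rl1, Il11ra1 and Nfkb1 had no probe set of their own in that annotation and were not analysed here. The 57 comprised 29 secreted factors, 17 receptors and 11 genes of NF-kB signalling and cytokine feedback.

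Both lines derive from C57BL/6 neuroepithelial cells of the telencephalon at embryonic day 14.5, carry the p53-/- genotype, and are described by the labels as neural stem cells resembling glioma-initiating cells. The cells grew as floating spheres in serum-free medium with basic FGF, PDGF, insulin and forskolin. The published account of these lines, though not the labels, adds an oncogenic form of H-Ras to both. There were 2 Affymetrix arrays per line, 1 array per RNA sample, and the submitters state that NSCL61-sox11 lost its ability to form tumours in transplanted animals. NSCL61-sox11 is a single derivative, and the sources used here do not say whether it is 1 clone.

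Cytokines bind receptors that relay through a few shared routes. Receptors of the interleukin-6 family, such as those for LIF and oncostatin M, share the signalling chain gp130, encoded by Il6st, and activate JAK kinases and STAT3, with SOCS proteins as feedback inhibitors. Interleukin-1 and Toll-like receptors use adaptors such as MyD88, and TNF receptors use others such as TRAF2. Through the IkB kinases these receptors release the NF-kB dimers, whose targets include many chemokines and their own inhibitors, among them Nfkbia and Tnfaip3. In the brain these ligands recruit microglia and other myeloid cells, and LIF-family signals favour astrocyte formation from neural stem cells.

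Values are the deposited levels, read as log2 from their range, in which 1 unit is a 2-fold difference. Levels of different probe sets served to filter, to choose the brightest and to sum markers, and were otherwise not compared between genes. Sox11 itself was higher on both NSCL61-sox11 arrays (7.74 and 7.97) than on both NSCL61 arrays (5.09 and 4.82). Of 13084 genes above the level filter, with a mean of at least 5.15, 2510 (19.2%) changed between the lines at a limma adjusted p under 0.05, 1308 (10.0%) upwards and 1202 (9.19%) downwards. Over the 27022 probe sets behind them the share was 17.3%, 8.99% upwards and 8.32% downwards. Arrays of a line correlated at 0.995 in NSCL61 and 0.994 in NSCL61-sox11, and arrays of different lines at 0.968 to 0.972, across 27022 probe sets. The labels do not say whether the 2 arrays of a line are separate cultures; p-values therefore reflect array-to-array spread alone, possibly technical. An exact two-sided permutation test of 2 arrays against 2 cannot give a p below 0.333.

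Markers of other cell types were read beside these genes, since in bulk RNA a change in the number of cells of a type and a change in RNA per cell cannot be told apart. Of 14 markers of microglia and blood cells, 8 lay below the level filter, Ptprc, Itgam and C1qb among them, and 0 of the 6 tested were called by limma, with 0 at an unadjusted p under 0.05. Their summed linear level was 542 to 566 in NSCL61 and 532 to 551 in NSCL61-sox11. Of 8 endothelial markers 5 were tested and 0 called, with 2 (Cdh5, Flt1) at an unadjusted p under 0.05. Of 10 markers of fibroblasts and meninges, 8 were tested, of which 6 rose and none fell. Col3a1 (log2 fold change 1.04) and Dcn (0.36) did not pass. Lum (-0.20) and Thy1 (-0.12), below the level filter, lay lower on both NSCL61-sox11 arrays. The summed level of all 10, to which the brightest add most, was 2413 to 3525 in NSCL61 and 7597 to 11385 in NSCL61-sox11. The part of these markers in the rises of Osmr, Il33, Csf1 and the other members was not tested. Of the neural stem cell markers, 6 of 9 were tested, of which 1 rose, 2 fell and 3 did not pass. Slc1a3, an astroglial glutamate transporter, rose 2.28-fold at 6.66 and 6.84 against 7.78 and 8.09, and the transcription factor gene Pax6 fell 1.36-fold at 7.91 and 8.03 against 7.42 and 7.62. Sox2, which also fell, read 10.29 and 10.75 against 8.68 and 8.97 and Nes, which did not pass, 9.48 and 9.31 against 9.37 and 9.51, while Fabp7, Sox1 and Prom1 lay below the level filter.

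Of the 57 members with a value, 48 passed the level filter and 9, all secreted factors, did not. Among the 48, 19 rose, 3 fell and 26 did not pass the test, so 45.8% were called against 19.2% of all genes tested. Of the 48, 1 (Lifr) passed the filter only through the line in which it was higher, so its call is no support. Risers made up 39.6% of the members against 10.0% of all genes, and fallers 6.25% against 9.19%. Rises of at least 2-fold numbered 9 (3.18% of all genes rose that far), and the largest called fall was that of Il4ra. Both NSCL61-sox11 arrays lay above both NSCL61 arrays for 25 of the 48 and below them for 12, against 29.3% and 32.9% of all genes, or 62.2% in either direction. The median log2 fold change of the 48 was 0.25, beside -0.02 for all genes tested. Scaling the arrays to the poly-A spike-in controls lowers every log2 fold change by 0.43 and turned the members' median to -0.18, with all genes at -0.45. Such a uniform shift cannot alter the gap to the other genes, so it is no check of that gap. With that scaling 6 members rose and 3 fell. Leaving out NSCL61 array 1 left 12 risers and no faller, and leaving out NSCL61 array 2 left 12 risers and 1 faller, while the genes called in all fell to 541 upwards and 365 downwards, and to 644 and 299.

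The share called differed by role, without a test of that difference. Of the 20 secreted factors tested, 4 rose, 1 fell and 15 did not pass (25% called, against 19.2% of all genes tested). Of the 17 receptors, 8 rose, 2 fell and 7 did not pass (58.8% called, against the same 19.2%). Of the 11 NF-kB, adaptor and feedback genes, 7 rose and 4 did not pass, with no faller (63.6% called, against 19.2%). At an unadjusted p under 0.05 in limma 1 of the 11 was lower, Socs1. The medians were 0.18, 0.25 and 0.52 in that order, and with poly-A scaling -0.25, -0.18 and 0.09; with hybridisation-control scaling that of the secreted factors was -0.02.

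**Figure D1:**
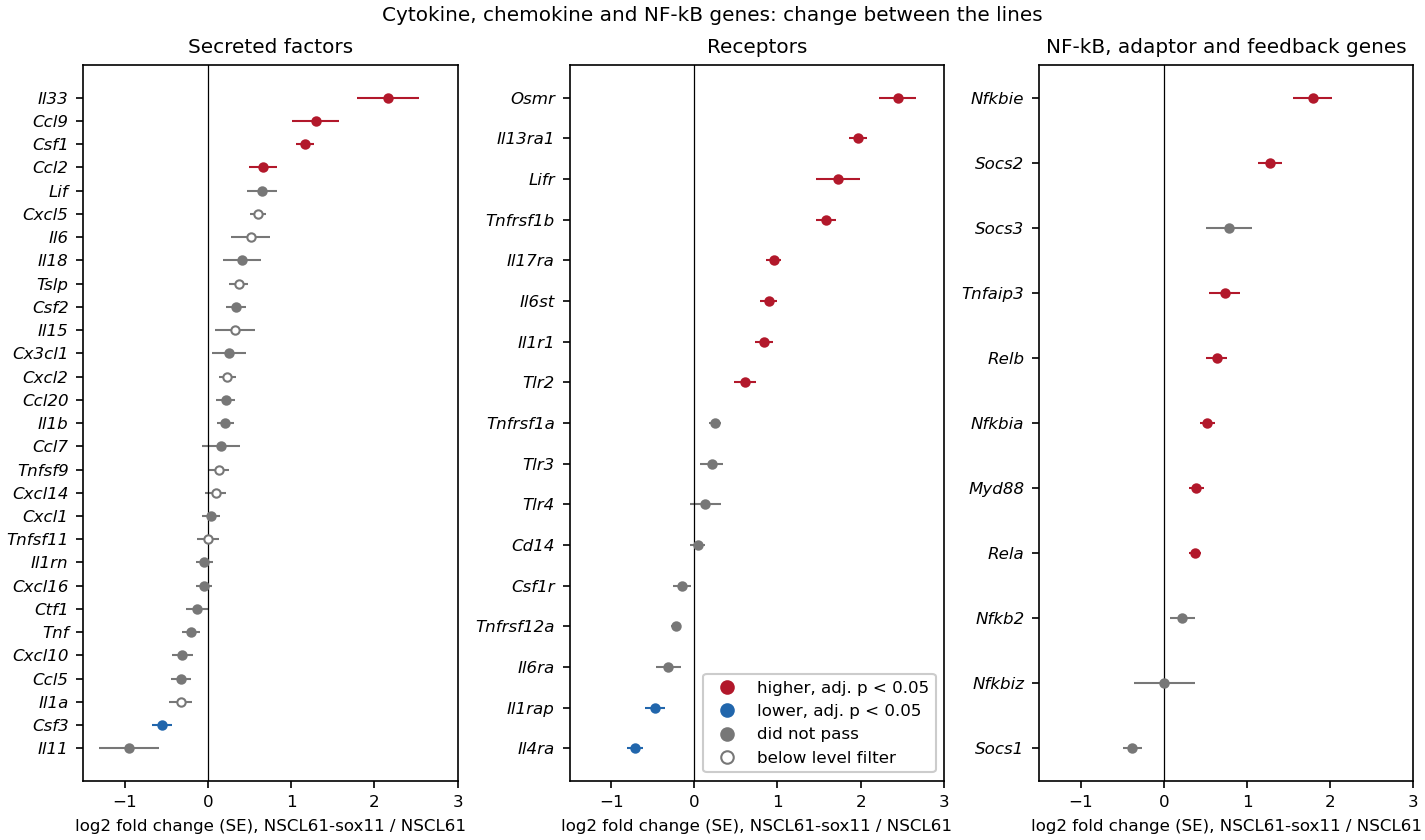
Log2 fold change of each member between NSCL61-sox11 and NSCL61, with its moderated SE (bars), in 3 panels by role; red and blue points passed the test upwards and downwards, grey points did not, and open points lie below the level filter and come from the fit of all probe sets. The receptor Osmr at 2.44 and the interleukin gene Il33 at 2.16 lie farthest to the right, and Il11 at -0.95, which did not pass, farthest to the left.

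The secreted factors that rose were Il33, Ccl9, Csf1 and Ccl2. Il33 encodes an interleukin-1 family member kept in the nucleus and released by damaged cells. Its level was 7.78 and 8.73 on the NSCL61 arrays and 9.98 and 10.86 on the NSCL61-sox11 arrays. Both NSCL61-sox11 arrays were above both NSCL61 arrays, by more than the gap within either line, a 4.48-fold difference (log2 fold change 2.16, SE 0.37, limma adjusted p = 0.012). Csf1 encodes macrophage colony-stimulating factor, the growth factor of microglia and macrophages. It read 10.03 and 10.03 on the NSCL61 arrays and 11.34 and 11.05 on the NSCL61-sox11 arrays, with the NSCL61 arrays nearly equal and a 2.25-fold rise (log2 fold change 1.17, SE 0.11, limma adjusted p = 0.0013). Ccl9, a CC chemokine of myeloid cells, read 6.04 and 5.24 on the NSCL61 arrays and 7.19 and 6.68 on the NSCL61-sox11 arrays. The groups did not overlap and the rise was 2.45-fold (log2 fold change 1.29, SE 0.28, limma adjusted p = 0.027). Ccl2, the monocyte-attracting chemokine also known as MCP-1, read 9.78 and 10.34 on the NSCL61 arrays and 10.73 and 10.70 on the NSCL61-sox11 arrays. Its 2 high arrays lay close together while the NSCL61 arrays were spread, and the rise of 1.58-fold passed narrowly (log2 fold change 0.66, SE 0.17, limma adjusted p = 0.045). Ccl7, which the gene table places next to Ccl2 on chromosome 11, read 7.01 and 7.71 against 7.62 and 7.40 and overlapped between the lines.

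Csf3, the granulocyte colony-stimulating factor gene, was the secreted factor that fell. It read 6.54 and 6.34 on the NSCL61 arrays and 5.79 and 5.98 on the NSCL61-sox11 arrays, a 1.47-fold difference with no overlap (log2 fold change -0.55, SE 0.12, limma adjusted p = 0.029). Il11, an interleukin-6 family ligand, read 7.47 and 6.48 against 6.41 and 5.66. The NSCL61-sox11 arrays were the lower pair, but the arrays of each line lay far apart and the difference of -0.95 did not pass (limma adjusted p = 0.13). Lif, the ligand of the LIF receptor, read 8.13 and 7.67 against 8.71 and 8.39, the NSCL61-sox11 arrays being the higher pair (0.65, limma adjusted p = 0.056). Another tested Lif probe set read 6.31 and 6.00 against 6.37 and 5.99 and overlapped (0.03, limma adjusted p = 0.94). Cx3cl1, the membrane-bound chemokine fractalkine, read 8.96 and 9.57 against 9.38 and 9.67 and overlapped (limma adjusted p = 0.45). The other 12 tested secreted factors had log2 fold changes between -0.32 (Ccl5) and 0.41 (Il18). They included the inflammatory cytokines Il1b (0.21) and Tnf (-0.20), the neutrophil chemokine Cxcl1 (0.04), the interferon-induced chemokine Cxcl10 (-0.31), and Il1rn, which encodes the secreted interleukin-1 receptor antagonist (-0.05). None of these passed. Both tested Cxcl1 probe sets are of the types with shared sequence. A Cxcl1 probe set of neither type, below the level filter, read 3.50 and 3.60 against 3.83 and 4.03. It differed by 0.38 in the fit of all probe sets (limma adjusted p = 0.095).

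The 9 secreted factors below the level filter were Cxcl2, Cxcl5, Cxcl14, Il1a, Il6, Il15, Tnfsf9, Tnfsf11 and Tslp. In a fit of all 45037 non-control probe sets, which called 10.1% of them, Cxcl5 was the 1 of these 9 to pass. This neutrophil chemokine read 2.87 and 2.85 against 3.46 and 3.47, a difference of 0.60 (limma adjusted p = 0.0088), on levels where the size of a change is uncertain. Il6, the founding ligand of the gp130 family, read 4.12 and 4.30 against 4.33 and 5.12, with 1 array above the others (0.51, limma adjusted p = 0.25). The other 7 ranged from -0.33 (Il1a) to 0.37 (Tslp) without passing.

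Several of these calls were lost when 1 array was left out. Leaving out NSCL61 array 1 ended the calls of Il33 (log2 fold change 1.69, adjusted p = 0.055), Ccl2 (0.38, 0.13) and Csf3 (-0.45, 0.16), and leaving out NSCL61 array 2 those of Ccl9 (log2 fold change 0.89, adjusted p = 0.091) and Csf3 (-0.65, 0.070). Without NSCL61-sox11 array 1 those of Ccl2 (log2 fold change 0.64, adjusted p = 0.067), Ccl9 (1.04, 0.050) and Csf3 (-0.46, 0.080) were lost, and without NSCL61-sox11 array 2 that of Ccl2 (log2 fold change 0.67, adjusted p = 0.053). In that last fit Lif passed upwards (adjusted p = 0.025) and Cxcl10 downwards (0.042), and without NSCL61-sox11 array 1 Il18 passed upwards (adjusted p = 0.024) and Il11 downwards (0.040). Csf1 kept its call in each of these 4 fits. It lost it with poly-A scaling, where its log2 fold change was 0.74 (adjusted p = 0.093), as did Ccl9 (adjusted p = 0.067) and Ccl2 (0.23, adjusted p = 0.52). The call of Ccl2 was also lost with median centring (adjusted p = 0.053) and with hybridisation-control scaling (adjusted p = 0.081), and Il11 passed downwards with either spike-in scaling.

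Among the receptors, the specific chain of the oncostatin M receptor rose, as did gp130. Osmr, the specific chain of the oncostatin M receptor, read 5.24 and 5.79 on the NSCL61 arrays and 7.73 and 8.18 on the NSCL61-sox11 arrays. The higher NSCL61 array was 1.94 below the lower NSCL61-sox11 array, and the rise of 5.44-fold was the largest among the 48 tested members (log2 fold change 2.44, SE 0.22, limma adjusted p = 0.0012). Lifr, the specific chain of the LIF receptor, read 4.48 and 4.98 on the NSCL61 arrays and 6.10 and 6.81 on the NSCL61-sox11 arrays, a 3.32-fold rise without overlap (log2 fold change 1.73, SE 0.26, limma adjusted p = 0.0081). Its size is uncertain because NSCL61 lay under the level filter, and for the same reason its call is no support. Another tested Lifr probe set differed by -0.001. Il6st, the shared chain gp130, read 8.74 and 8.77 on the NSCL61 arrays and 9.54 and 9.76 on the NSCL61-sox11 arrays, with tight groups and a 1.86-fold rise (log2 fold change 0.90, SE 0.10, limma adjusted p = 0.0028). Il6ra, the chain that binds interleukin-6, did not pass, at 6.98 and 7.27 against 6.66 and 6.97 (-0.31, limma adjusted p = 0.22). Osmr and Lifr are neighbours on chromosome 15, with no protein-coding gene of the RefSeq gene table (GRCm38.p6) between them, while Il6st lies on chromosome 13.

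The chains of the interleukin-4 and interleukin-13 receptors moved in opposite directions. Il13ra1, which pairs with the interleukin-4 receptor chain to bind either cytokine, read 6.94 and 7.06 on the NSCL61 arrays and 8.88 and 9.05 on the NSCL61-sox11 arrays, a 3.91-fold rise (log2 fold change 1.97, SE 0.11, limma adjusted p = 0.00019). Il4ra, its partner chain, read 8.12 and 8.10 on the NSCL61 arrays and 7.33 and 7.47 on the NSCL61-sox11 arrays, a 1.64-fold fall (log2 fold change -0.71, SE 0.10, limma adjusted p = 0.0055). In both genes the gap between the lines was several times the gap within them.

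Of the TNF receptors, 1 rose and the other 2 did not pass, while the interleukin-1 receptor chains moved in opposite directions. Tnfrsf1b, TNF receptor 2, read 6.47 and 6.41 on the NSCL61 arrays and 7.89 and 8.16 on the NSCL61-sox11 arrays, a 3-fold rise (log2 fold change 1.59, SE 0.12, limma adjusted p = 0.00064). Tnfrsf1a, TNF receptor 1, the widely expressed form, read 9.55 and 9.55 against 9.78 and 9.82, higher in both NSCL61-sox11 arrays but not past the threshold (0.25, limma adjusted p = 0.074). Tnfrsf12a, the TWEAK receptor Fn14, read 12.77 and 12.67 against 12.55 and 12.46 (-0.22, limma adjusted p = 0.062). Il1r1, the signalling receptor of interleukin-1, read 8.53 and 8.65 on the NSCL61 arrays and 9.33 and 9.53 on the NSCL61-sox11 arrays, a 1.79-fold rise (log2 fold change 0.84, SE 0.10, limma adjusted p = 0.0039). Il1rap, the accessory chain that it shares with the interleukin-33 receptor, read 8.02 and 8.21 on the NSCL61 arrays and 7.54 and 7.75 on the NSCL61-sox11 arrays, a 1.38-fold fall (log2 fold change -0.47, SE 0.12, limma adjusted p = 0.041).

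Il17ra, the common receptor chain for interleukin-17 cytokines, read 7.20 and 7.17 on the NSCL61 arrays and 8.16 and 8.10 on the NSCL61-sox11 arrays, a 1.93-fold rise with groups far apart (log2 fold change 0.95, SE 0.09, limma adjusted p = 0.0016). Tlr2, a Toll-like receptor for bacterial lipoproteins, read 5.57 and 5.25 on the NSCL61 arrays and 5.98 and 6.06 on the NSCL61-sox11 arrays (1.52-fold higher, log2 fold change 0.61, SE 0.14, limma adjusted p = 0.028). The other pattern receptors Tlr3 (0.21), Tlr4 (0.13) and Cd14 (0.04) overlapped between the lines and did not pass. Csf1r, the receptor of Csf1, read 6.62 and 6.77 against 6.60 and 6.50 and did not pass (-0.15, limma adjusted p = 0.40).

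Leaving out NSCL61 array 1 ended the calls of Il1rap (log2 fold change -0.56, adjusted p = 0.10) and Il4ra (-0.70, 0.051), and leaving out NSCL61 array 2 those of Il1rap (log2 fold change -0.38, adjusted p = 0.23) and Tlr2 (0.45, 0.14). The call of Il1rap also went when NSCL61-sox11 array 1 was left out (-0.37, adjusted p = 0.11), where Tnfrsf12a passed downwards (adjusted p = 0.027), and that of Tlr2 with array 2 of that line left out (0.57, adjusted p = 0.066). Poly-A scaling left Osmr, Lifr, Il13ra1 and Tnfrsf1b called upwards and Il4ra downwards, and ended the calls of Il6st (log2 fold change 0.47, adjusted p = 0.25), Il17ra (0.52, 0.24), Il1r1 (0.41, 0.30) and Tlr2 (0.18, 0.62). It also ended that of Il1rap, whose fall was then larger, at -0.90, with an SE of 0.32 in place of 0.12 (adjusted p = 0.056). Averaging a gene's tested probe sets lowered Lifr to 0.87 and Tnfrsf1b to 0.88, both still called. With hybridisation-control scaling that of Tlr2 was lost (adjusted p = 0.14).

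**Figure D2:**
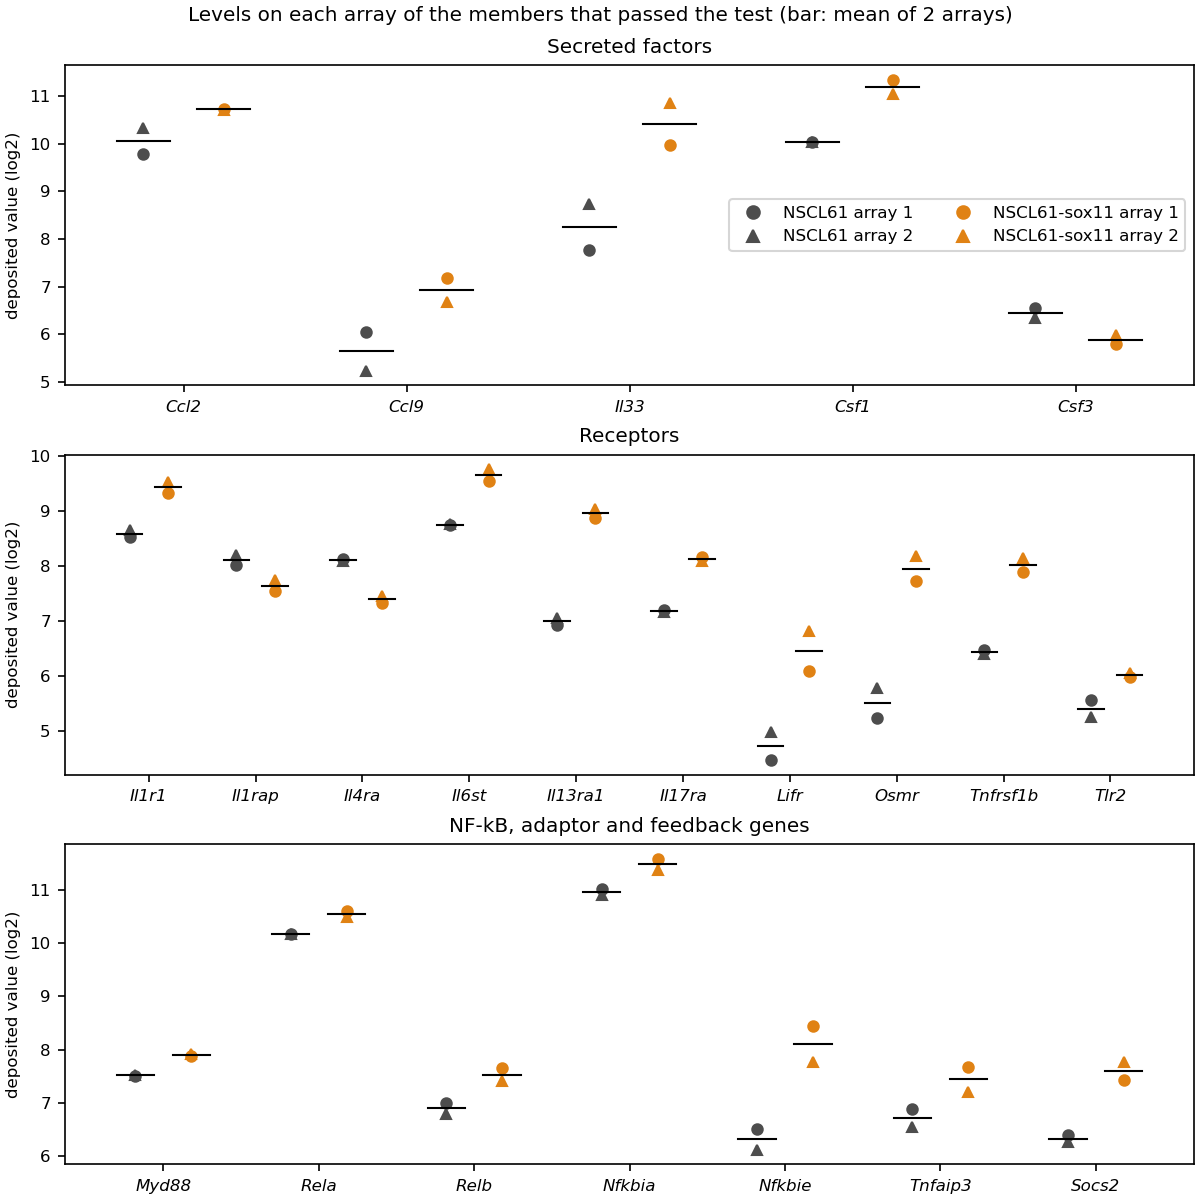
Deposited log2 level on each array of the 22 members that passed the test, in 3 panels by role; grey marks NSCL61 and orange NSCL61-sox11, circles array 1 and triangles array 2, and bars the mean of the 2 arrays. Il13ra1, Il17ra and Tnfrsf1b show tight groups far apart, while Ccl2 and Il33 show NSCL61 arrays that differ by 0.55 and 0.95.

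Among the NF-kB subunits, Rela and Relb rose. Rela encodes p65, the main activating subunit of the classical pathway. It read 10.17 and 10.18 on the NSCL61 arrays and 10.60 and 10.50 on the NSCL61-sox11 arrays, a small but tight difference of 1.30-fold (log2 fold change 0.37, SE 0.08, limma adjusted p = 0.021) that turned to -0.056 with poly-A scaling. Relb, a subunit of the alternative pathway, read 7.00 and 6.79 on the NSCL61 arrays and 7.65 and 7.40 on the NSCL61-sox11 arrays (1.55-fold higher, log2 fold change 0.63, SE 0.13, limma adjusted p = 0.022). Nfkb2, whose product p100 partners it, read 9.51 and 9.39 against 9.89 and 9.46 and overlapped (0.22, limma adjusted p = 0.36). Myd88, the adaptor of interleukin-1 and Toll-like receptors, read 7.51 and 7.53 on the NSCL61 arrays and 7.89 and 7.92 on the NSCL61-sox11 arrays, a 1.31-fold rise (log2 fold change 0.39, SE 0.09, limma adjusted p = 0.033) that became -0.044 with poly-A scaling.

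Of the members that restrain NF-kB, Nfkbie, Nfkbia and Tnfaip3 rose. Among genes outside the member list, Tnip1 rose (log2 fold change 0.63) and Sigirr, which restrains interleukin-1 and Toll-like signalling, fell (-1.60). Some of those genes did not pass: Nfkbib, which encodes IkB-beta, differed by -0.01, the deubiquitinase gene Cyld by 0.14 and Tnip2, a relative of Tnip1, by -0.29. Nfkbie, which encodes IkB-epsilon, read 6.50 and 6.12 on the NSCL61 arrays and 8.44 and 7.76 on the NSCL61-sox11 arrays, a 3.45-fold rise (log2 fold change 1.79, SE 0.24, limma adjusted p = 0.0049). Nfkbia, which encodes IkB-alpha and is a classical NF-kB target, read 11.01 and 10.90 on the NSCL61 arrays and 11.58 and 11.38 on the NSCL61-sox11 arrays (1.44-fold higher, log2 fold change 0.52, SE 0.09, limma adjusted p = 0.013). Tnfaip3, the ubiquitin-editing enzyme A20 that ends NF-kB signalling, read 6.89 and 6.55 on the NSCL61 arrays and 7.68 and 7.21 on the NSCL61-sox11 arrays (1.66-fold higher, log2 fold change 0.73, SE 0.19, limma adjusted p = 0.044). In each of the 3 genes both NSCL61-sox11 arrays were above both NSCL61 arrays. The atypical nuclear regulator Nfkbiz read 7.94 and 8.52 against 7.67 and 8.80; its array 2 was the higher one in both lines, and the spread within each line exceeded the difference of 0.00 between their means (limma adjusted p = 0.996).

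Of the SOCS feedback genes, which switch off cytokine receptors, Socs2 rose. It read 6.39 and 6.26 on the NSCL61 arrays and 7.43 and 7.77 on the NSCL61-sox11 arrays, a 2.42-fold rise (log2 fold change 1.28, SE 0.14, limma adjusted p = 0.0025). Socs3, the main inhibitor of gp130 signalling, read 9.07 and 9.46 against 9.60 and 10.48. Both NSCL61-sox11 arrays were the higher, but NSCL61-sox11 array 1 was 0.15 above NSCL61 array 2, and the difference of 0.78 did not pass (limma adjusted p = 0.11). Further tested Socs3 probe sets overlapped between the lines, with differences of 0.60 and 0.60 (limma adjusted p = 0.22 and 0.21). Socs1, which acts mainly on interferon receptors, read 6.72 and 6.49 against 6.27 and 6.18, the NSCL61-sox11 arrays being lower without passing (-0.38, limma adjusted p = 0.078).

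The NF-kB and adaptor calls were also open to leaving out 1 array, without any fold turning sign. Without NSCL61 array 1 the calls of Myd88 (log2 fold change 0.38, adjusted p = 0.18), Rela (0.37, 0.15), Relb (0.74, 0.062), Nfkbia (0.58, 0.066) and Tnfaip3 (0.90, 0.080) were lost, and without NSCL61 array 2 those of Myd88 (log2 fold change 0.40, adjusted p = 0.16), Rela (0.38, 0.15), Relb (0.53, 0.13), Nfkbia (0.47, 0.11) and Tnfaip3 (0.56, 0.21). Leaving out NSCL61-sox11 array 1 ended those of Myd88 (log2 fold change 0.40, adjusted p = 0.063), Relb (0.51, 0.053) and Tnfaip3 (0.49, 0.093), and Socs3 passed in that fit (adjusted p = 0.0027). Without NSCL61-sox11 array 2 that of Myd88 (log2 fold change 0.37, adjusted p = 0.087) was lost, while Nfkb2 passed (adjusted p = 0.026). Nfkbie and Socs2 kept their calls in each of the 4 fits. With poly-A scaling Nfkbie remained called, and the calls of Relb (log2 fold change 0.20, adjusted p = 0.60), Nfkbia (0.093, 0.79), Tnfaip3 (0.30, 0.45) and Socs2 (0.84, 0.083) were lost, with those of Rela (log2 fold change -0.056, adjusted p = 0.88) and Myd88 (-0.044, 0.91). Hybridisation-control scaling ended those of Nfkbia (log2 fold change 0.32, adjusted p = 0.22), Relb (0.43, 0.12), Rela (0.17, 0.53) and Myd88 (0.19, 0.52), and quantile normalization that of Tnfaip3 (log2 fold change 0.68, adjusted p = 0.065).

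The promoters of 4 risers are shown because each holds a letter match to an NF-kB motif within the window of 250 bases before to 50 after the RefSeq start (build GRCm38.p6). Capitals mark matches to an NF-kB motif, to TTCNNNGAA (STAT) or to TGANTCA (AP-1), searched on both strands, and each sequence reads 5′ to 3′ along the gene. The regions are chr12:55492598-55492897 (minus strand) for Nfkbia, chr3:107760420-107760719 (minus strand) for Csf1, chr11:83578587-83578886 (minus strand) for Ccl9 and chr10:19015361-19015660 (minus strand) for Tnfaip3.
Nfkbia: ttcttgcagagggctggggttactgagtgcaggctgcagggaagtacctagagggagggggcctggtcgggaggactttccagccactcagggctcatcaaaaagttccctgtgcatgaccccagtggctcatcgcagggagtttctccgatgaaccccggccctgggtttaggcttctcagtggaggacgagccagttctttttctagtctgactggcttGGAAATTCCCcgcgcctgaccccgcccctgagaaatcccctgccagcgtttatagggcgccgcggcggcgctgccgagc
Csf1: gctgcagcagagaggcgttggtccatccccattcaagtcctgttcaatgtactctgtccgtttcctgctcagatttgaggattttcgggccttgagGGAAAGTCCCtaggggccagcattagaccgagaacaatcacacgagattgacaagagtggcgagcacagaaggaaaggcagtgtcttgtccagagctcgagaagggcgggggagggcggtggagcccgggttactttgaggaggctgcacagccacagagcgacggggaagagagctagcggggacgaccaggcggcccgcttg
Ccl9: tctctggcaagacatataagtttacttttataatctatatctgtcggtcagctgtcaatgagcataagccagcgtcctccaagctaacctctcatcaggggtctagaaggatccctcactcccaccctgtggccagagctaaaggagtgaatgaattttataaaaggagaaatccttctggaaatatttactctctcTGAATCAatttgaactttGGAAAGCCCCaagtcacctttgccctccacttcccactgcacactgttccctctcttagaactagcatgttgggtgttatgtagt
Tnfaip3: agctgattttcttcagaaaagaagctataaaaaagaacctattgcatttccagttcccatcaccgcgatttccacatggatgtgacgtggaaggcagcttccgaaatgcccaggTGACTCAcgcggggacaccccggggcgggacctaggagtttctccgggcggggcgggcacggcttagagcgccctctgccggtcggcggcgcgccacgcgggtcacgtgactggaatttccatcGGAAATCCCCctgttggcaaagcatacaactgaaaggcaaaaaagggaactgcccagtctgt

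The NF-kB match lay at position -29 relative to the start in Nfkbia, -154 in Csf1, -35 in Ccl9 and -12 in Tnfaip3, on the opposite strand to the gene in each. Ccl9 and Tnfaip3 also held an AP-1 match, and no match of one motif shared a base with another in any member promoter. Of the members, 43 had a promoter in the RefSeq table. An NF-kB match lay in 12 of the 43 (27.9%), against 1.89% of 27025 genes with a promoter there; 1.63% of all 32851 promoters held one. Many members are known NF-kB targets, so the match is a description of the list. By outcome, a match lay in 4 of 15 risers, 1 of 2 fallers, 5 of 19 tested members that did not pass and 2 of 5 below the filter. A STAT match lay in 6 members (14.0%, against 9.55% of genes) and an AP-1 match in 11 (25.6%, against 8.97%), including Osmr and Nfkbie.

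The NF-kB matches of 8 other members are given with up to 10 bases on each side, on the strand where the motif was matched, because they set risers beside members that fell, did not pass or lay below the filter. Cxcl1 and Cxcl2 held 2 matches each, of which 1 is shown. The match shown for Il1rn is a single site shared by overlapping promoters of that gene, and so is the match shown for Nfkb2. A further Nfkb2 promoter held a different match, which is not shown.
Il4ra: cgcgccgcgcGGGGCTTTCCtgcgagaagg
Cxcl1: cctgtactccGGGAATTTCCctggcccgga
Cxcl2: cctgagctcaGGGAATTTCCctggtccccg
Ccl20: gttctcacccGGGGTTTTCCcccattgatt
Il6: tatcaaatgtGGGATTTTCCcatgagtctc
Nfkb2: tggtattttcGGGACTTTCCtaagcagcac
Il1rn: ggaaatatgaGGGTTTTTCCgcttctgaca
Tlr3: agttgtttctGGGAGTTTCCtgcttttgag

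The Nfkbia, Cxcl1 and Cxcl2 matches share the letters GGGAATTTCC, while Nfkbia rose (log2 fold change 0.52), Cxcl1 did not pass (0.04, limma adjusted p = 0.85) and Cxcl2 lay below the level filter. Ccl9 and Il4ra share GGGGCTTTCC, and Ccl9 rose (1.29) while Il4ra fell (-0.71). Csf1 and Nfkb2 share GGGACTTTCC, with Csf1 at 1.17 and Nfkb2 at 0.22, the latter without passing.

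Several members have more than 1 probe set, which gives a check within the same arrays. For Il13ra1, 4 of 5 probe sets rose by 1.62 to 2.02, and the fifth differed by -0.04. All 4 probe sets of Il6st rose (0.75 to 1.42), as did all 4 of Csf1 (0.73 to 1.17), all 5 of Nfkbia (0.43 to 0.56) and both of Il17ra (0.69 and 0.95). Both of Nfkbie also rose (1.69 and 1.79), but that at 1.69 passed the level filter only through NSCL61-sox11 and is no support. Osmr rose on both tested probe sets (1.34 and 2.44), but that at 1.34 passed the level filter only through NSCL61-sox11 and is no support. A further Osmr probe set, below the filter, differed by 0.05. Il4ra fell on 2 of 3, the other also lying lower (-0.43). Probe sets disagreed for others. Tnfrsf1b rose on 1 of 2, with 0.17 on the other, Tnfaip3 on 1 of 2, with 0.12 on the other, and Lifr on 1 of 2 tested, with 0.00 on the other. Socs2 rose on 2 of 3 tested probe sets by 1.28 and 1.29, with 0.07 on the third. Il1r1 rose on its 1 tested probe set, with -0.40 on another below the filter. Il1rap fell on 1 of 3, and the other 2 lay at -0.38 and -0.24. With the mean of a gene's tested probe sets in place of the brightest, Il1rap (-0.36, adjusted p = 0.061) and Tnfaip3 (0.43, adjusted p = 0.10) lost their calls, as did Ccl2 (adjusted p = 0.055).

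**Figure D3:**
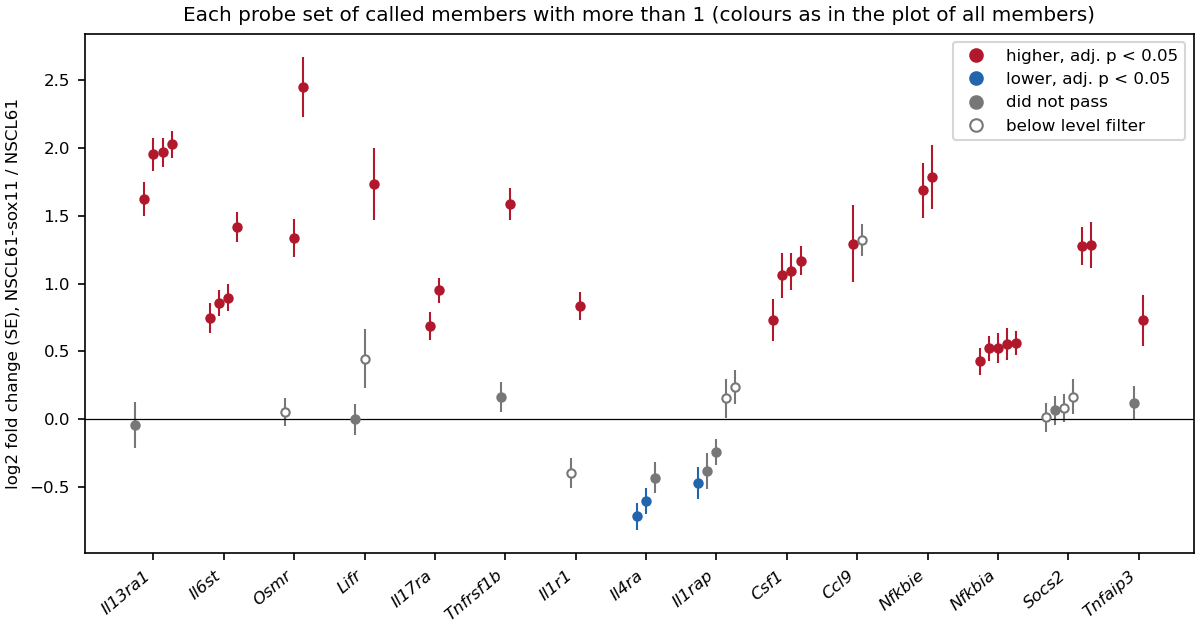
Log2 fold change between NSCL61-sox11 and NSCL61, with moderated SE, of every probe set of the 15 called members that have more than 1; red and blue points passed the test upwards and downwards, grey points did not, and open points lie below the level filter. Every probe set of Csf1, Nfkbia and Il6st passed upwards, while Tnfrsf1b, Lifr and Tnfaip3 each had a tested probe set that did not pass.

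Other genes of the same pathways were read from 5 lists of known members and targets. The list medians given below fall by 0.43 with poly-A scaling, after which each lies below 0, and by 0.20 with hybridisation-control scaling, after which that of the JAK-STAT relay alone lies above 0. Among 26 tested genes for adaptors and kinases there were 3 risers, 1 faller and 22 that did not pass (15.4% called, against 19.2% of all genes tested), with a median of 0.16. Sigirr, an orphan receptor that restrains interleukin-1 and Toll-like signalling, read 10.44 and 10.54 on the NSCL61 arrays and 8.71 and 9.07 on the NSCL61-sox11 arrays, a 3.02-fold fall (log2 fold change -1.60, SE 0.13, limma adjusted p = 0.00086). Tnip1, a partner of A20, rose 1.55-fold (limma adjusted p = 0.0073), Bcl3, an atypical IkB protein, 1.53-fold (limma adjusted p = 0.023), and Traf2, an adaptor of TNF receptors, 1.45-fold (limma adjusted p = 0.031). Among those that did not pass were the IkB kinase genes Ikbkb (-0.16) and Ikbkg (-0.03).

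Of 20 JAK-STAT relay genes, 4 rose, 1 fell and 15 did not pass (25% called, against the same 19.2%), with a median of 0.22. Stat3, the transcription factor activated by gp130, read 8.49 and 8.60 on the NSCL61 arrays and 9.30 and 9.55 on the NSCL61-sox11 arrays, a 1.84-fold rise (log2 fold change 0.88, SE 0.11, limma adjusted p = 0.0044). Stat5a rose 2.06-fold (limma adjusted p = 0.0092), Stat5b 1.37-fold (limma adjusted p = 0.036) and the kinase gene Jak1, which serves the gp130 receptors, 1.41-fold (limma adjusted p = 0.019). Socs5, another SOCS family gene, was the 1 that fell (-0.27).

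Of 17 STAT3 target genes, 3 rose, 2 fell and 12 did not pass (29.4% called, against 19.2%), with a median of -0.19. The risers were the transcription factor genes Cebpd, at 7.59 and 7.66 against 8.98 and 9.06 (2.63-fold, limma adjusted p = 0.00037), Cebpb (1.85-fold, limma adjusted p = 0.0024) and Junb (1.77-fold, limma adjusted p = 0.035). The AP-1 gene Fosl1 fell by 0.53 and the intermediate filament gene Vim by 0.21 on the log2 scale. The astrocyte filament gene Gfap read 6.09 and 6.02 against 5.79 and 5.75 without passing (limma adjusted p = 0.10).

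Of 27 NF-kB target genes, 7 rose, 1 fell and 19 did not pass (29.6% called, against 19.2%), with a median of 0.13. Birc3, an inhibitor of cell death, read 5.96 and 5.88 against 7.39 and 7.08 (2.50-fold higher, limma adjusted p = 0.0018). Gadd45b rose 2.01-fold (limma adjusted p = 0.032), Tnfaip2 1.97-fold (limma adjusted p = 0.011) and Ifngr2, a chain of the interferon-gamma receptor, 1.62-fold (limma adjusted p = 0.0069). The other risers were Birc2, Irf1 and Bcl10, of which Irf1 and Bcl10 turned to -0.023 and -0.11 with poly-A scaling. Sod2, the mitochondrial superoxide dismutase, was the 1 that fell (-0.30). Those that did not pass included Ptgs2, which encodes the prostaglandin synthase COX-2 (-0.20), the adhesion gene Vcam1 (0.22), Nos2, inducible nitric oxide synthase (0.13), and the gelatinase gene Mmp9 (-0.15).

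Among 26 tested genes for other cytokines and chemokine receptors there were 1 riser, 2 fallers and 23 that did not pass (11.5% called, against 19.2%), with a median of -0.09; 30 more lay below the level filter. Il7, a lymphocyte growth factor, rose 1.99-fold (limma adjusted p = 0.0076). Clcf1, a ligand of the gp130 family, read 10.06 and 10.01 on the NSCL61 arrays and 8.99 and 9.01 on the NSCL61-sox11 arrays, a 2.05-fold fall (log2 fold change -1.03, SE 0.08, limma adjusted p = 0.00068). Il34, the other ligand of Csf1r, read 7.75 and 7.68 on the NSCL61 arrays and 6.97 and 6.93 on the NSCL61-sox11 arrays, a 1.70-fold fall (log2 fold change -0.77, SE 0.09, limma adjusted p = 0.0039), beside the rise of Csf1. Osm, the ligand of Osmr, read 6.13 and 6.10 against 5.96 and 6.24 and overlapped between the lines (limma adjusted p = 0.95).

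The calls of Sigirr, Stat3, Cebpd, Cebpb, Birc3, Il7, Clcf1 and Il34 held with each array left out. Leaving out NSCL61 array 1 ended those of Traf2 (log2 fold change 0.56, adjusted p = 0.14), Tnip1 (0.57, 0.073), Bcl3 (0.70, 0.074), Jak1 (0.40, 0.14), Stat5b (0.54, 0.082), Socs5 (-0.25, 0.27), Sod2 (-0.25, 0.29), Gadd45b (1.19, 0.077), Tnfaip2 (0.94, 0.074), Ifngr2 (0.64, 0.063), Birc2 (0.57, 0.071), Irf1 (0.45, 0.13), Bcl10 (0.36, 0.16), Junb (0.75, 0.18), Fosl1 (-0.44, 0.26) and Vim (-0.23, 0.14). Leaving out NSCL61 array 2 ended those of Traf2 (log2 fold change 0.51, adjusted p = 0.16), Bcl3 (0.53, 0.13), Jak1 (0.60, 0.055), Stat5a (0.96, 0.063), Stat5b (0.35, 0.20), Socs5 (-0.30, 0.19), Sod2 (-0.35, 0.15), Gadd45b (0.82, 0.17), Tnfaip2 (1.02, 0.059), Irf1 (0.37, 0.18), Bcl10 (0.28, 0.25), Junb (0.90, 0.12), Fosl1 (-0.63, 0.13) and Vim (-0.19, 0.19). Without NSCL61-sox11 array 1 those of Traf2 (log2 fold change 0.38, adjusted p = 0.062), Stat5b (0.43, 0.085), Socs5 (-0.26, 0.054) and Irf1 (0.36, 0.062) were lost, and without NSCL61-sox11 array 2 those of Bcl3 (log2 fold change 0.49, adjusted p = 0.065), Stat5b (0.47, 0.067), Sod2 (-0.26, 0.071), Bcl10 (0.28, 0.076) and Fosl1 (-0.33, 0.057). With poly-A scaling Sigirr, Clcf1, Il34, Fosl1 and Cebpd kept their calls and the other 20 called genes of the 5 lists lost theirs. Those with smaller rises included Birc3 (log2 fold change 0.89, adjusted p = 0.063), Stat5a (0.61, 0.18), Il7 (0.56, 0.20), Cebpb (0.46, 0.24) and Stat3 (0.45, 0.27), and those with larger falls were Socs5 (log2 fold change -0.70, adjusted p = 0.11), Sod2 (-0.73, 0.094) and Vim (-0.64, 0.14).

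**Figure D4:**
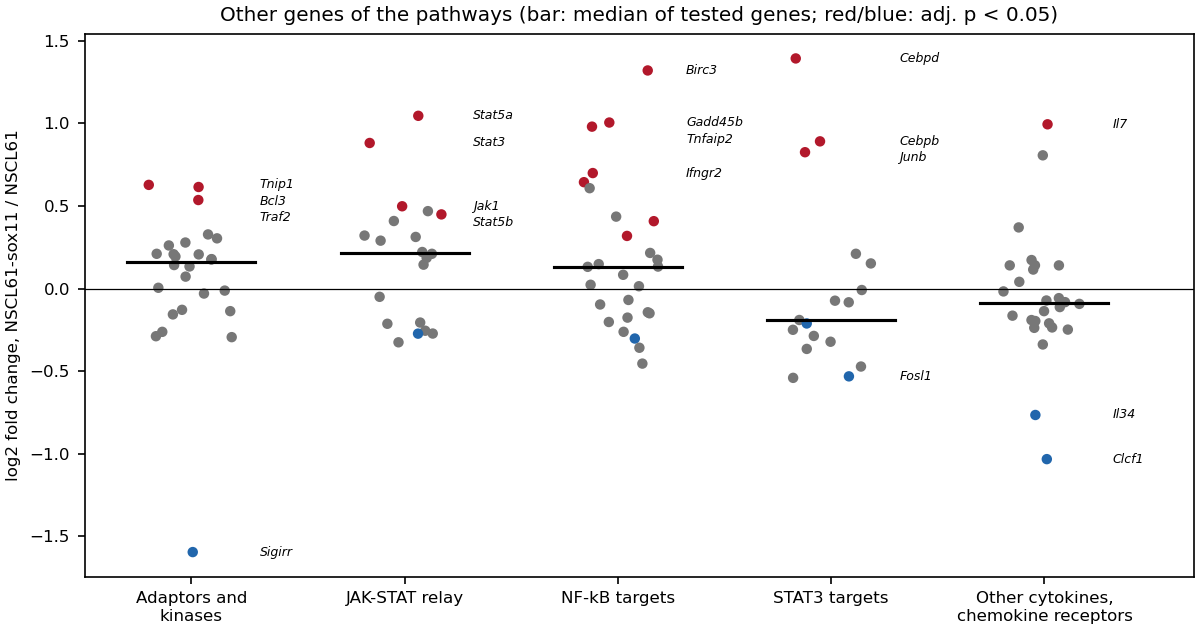
Log2 fold change between NSCL61-sox11 and NSCL61 of the tested genes of 5 pathway lists; each point is 1 gene, bars are medians, red and blue points passed the test upwards and downwards, and up to 4 called genes per list with the largest changes are named. The medians run from -0.19 for STAT3 targets to 0.22 for the JAK-STAT relay, while Cebpd at 1.39 and Sigirr at -1.60 mark the extremes.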

How the data were processed

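The authors hybridised biotin-labelled total RNA from 2 samples per line to Affymetrix mouse M430_2 arrays, per the labels. The values are the deposited table of 45101 probe sets. Their log2 scale was read from the range of 2.13 to 14.62 and is not stated by the authors, and the software and normalization are not given in the sources used here. Fold changes inherit that unknown scaling, and the number of arrays limits the precision.

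After leaving out 64 control probe sets, the 60% with the highest mean (27022) were tested with limma 3.58.1 in R 4.3.3 (lmFit, eBayes with an intensity trend, two-sided, Benjamini-Hochberg over all 27022, called under 0.05), first checked on simulated data. The fit has 2 residual degrees of freedom. Spreads are moderated standard errors. The platform annotation gave 34945 probe sets 1 gene symbol, 932 several and 9160 none, and symbols were kept as given. Sequences, motifs and neighbours came from RefSeq (GRCm38.p6), and figures were drawn with matplotlib 3.10.9.

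Members and gene lists were chosen with earlier results of these data known. Array values were to be given for called members, for the 3 brightest of each role and for non-overlapping members that differed by at least 2-fold. In each pathway list the 4 called genes with the largest changes were to be named. Genes named beyond this (Ccl7, Lif, Csf1r, Il6ra, Socs1, Nfkbiz, members quoted from the ends of a range, the lone faller of a list, Osm, Gfap, Ptgs2, Vcam1, Nos2, Mmp9, Ikbkb, Ikbkg, Nfkbib, Cyld and Tnip2, and others that did not pass) were chosen after their values were seen. Alternatives covered normalization (quantile, median, poly-A and hybridisation controls), the level filter, the probe set per gene, probe sets with shared sequence, the trend, the replicate number as a block and each array left out. The expression of the deleted gene of the p53-/- genotype is not reported here.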

Additional observations from a re-analysis of the deposited data

How the results depend on the processing

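Of the 22 calls among members, those of Osmr, Il13ra1, Lifr, Tnfrsf1b and Nfkbie held under each alternative that gave a value, though averaging a gene's probe sets lowered Lifr from 1.73 to 0.87 and Tnfrsf1b from 1.59 to 0.88. Lifr passed the level filter through NSCL61-sox11 alone, so its call says nothing of stability. Scaling to the poly-A controls left 509 probe sets called upwards instead of 2429 and 6 members instead of 19, and turned Myd88 to -0.044, Rela to -0.056, Irf1 to -0.023 and Bcl10 to -0.11; it lowers each log2 fold change by 0.43, and SEs were larger too (Il1rap 0.32 instead of 0.12), while probe sets called downwards fell from 2249 to 1789. Scaling to the hybridisation controls lowers them by 0.20, with 1150 probe sets called upwards and 6 members called downwards instead of 3. Leaving out 1 array, the lone array of its line being assumed to vary like the others, gave 955 to 2416 probe sets upwards, 549 to 2380 downwards, 12 to 18 members upwards and 0 to 4 downwards. No member with a value lost its call when all probe sets, or the brightest 40%, were tested. Ccl2 and Tnfaip3 lost theirs without the intensity trend and, with Il1rap, when a gene's probe sets were averaged. With the replicate number as a block, 4519 probe sets rose and 4708 fell, as did 26 and 9 members, the 22 calls included. The differences between arrays 1 and 2 correlated at 0.41 between the lines, but the labels do not say that the numbers pair the arrays. Levels near the filter, as for Lifr, limit what the arrays can show.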
